A study of Apostichopus japonicus with 9 samples.

Results

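In the respiratory tree of Apostichopus japonicus, a sea cucumber, 46 of 13933 tested gene models stood apart at a dissolved oxygen of 2 mg/L, 23 of them above and 23 below the levels at 4 and 8 mg/L. They were chosen from the measured values. In each of them the 3 libraries of the 2 mg/L group (DO2) lay all above or all below the 6 libraries of the 4 mg/L group (DO4) and the 8 mg/L control (DO8), and the DO2 mean differed at least 2-fold from both other means. The DO4 and DO8 means had to lie within 1.5-fold of each other, the mean over the 9 libraries at 5 CPM or more, and the DO8 mean below 1000 CPM. CPM are read counts relative to the TMM-scaled size of the library, where TMM is a correction for libraries in which a few transcripts take much of the sequencing. Since these values set the choice, the levels below are a description and carry no test. With DO4 in the place of DO2 the same rule picked 38 models above and 49 below, so a set of this size was not particular to 2 mg/L.

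Sea cucumbers breathe by pumping sea water into the respiratory tree, a branched organ inside the body cavity, so its tissue is directly exposed to the oxygen of that water. In animals generally, low oxygen is sensed through the stability of hypoxia-inducible factors, which raise transcripts for glycolysis, oxygen delivery and stress protection. The files identify transcripts by scaffold and number without gene names, and 0 of 27214 identifiers matched the supplied list of 30661 RefSeq genes, so no member could be assigned to such a pathway. For the same reason the tissue label could not be checked against marker genes, and no sequence is shown.

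Each of the 9 libraries held poly(A) RNA pooled from 3 individuals, and each group had 3 libraries. The control water was kept at about 8 mg/L. For the other groups nitrogen aeration lowered the oxygen gradually to about 4 or 2 mg/L, of which the submitters define the latter as hypoxia, and exposure lasted 3 days. The labels name no strain, age, tank or sampling day. Pools of a group may have shared a tank, so the 3 libraries may not be separate exposures, and p-values measure only the spread between these pools. Total expected counts per library ran from 1536327 (DO4 library 1) to 4348873 (DO2 library 3). DO2 library 3 stood apart, since 10 models took 52.7% of its counts against 12.9% to 19.1% elsewhere, and its TMM factor was 0.458 against 0.771 to 1.27. Ratios that passed below 2, or moved by more than 1.5 times, when it was left out are given with and without it.

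Few models kept the DO2 libraries clear of all others. Of the 13933 tested models, 115 (0.825%) had every DO2 library above, and 138 (0.99%) every DO2 library below, the other 6. Such separation also arises in some models without any difference between groups, and that share was not estimated. The 2-fold limit left 64 and 67, the closeness of DO4 and DO8 left 36 and 40, and the limits on level left 23 and 23. The even split was not seen in every measure of level. The deposited FPKM values, which differ from the CPM in both unit and scaling, gave 5 models above, all of them members, and 102 below, of which 15 were members. With DESeq2 size factors the split was 23 above and 25 below, and with upper-quartile factors 21 and 24. In RNA from whole tissue, fewer cells of a type and less RNA per cell cannot be told apart.

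Among the models above, evm.model.scaffold495.4 had the clearest separation. Its DO2 libraries held 29.8, 24.6 and 40.5 CPM, its DO4 libraries 0, 2.22 and 5.37 CPM and its DO8 libraries 2.16, 0 and 4.55 CPM. The means were 31.6 ± 8.11 CPM in DO2 (SD, n = 3), 2.53 ± 2.7 in DO4 and 2.24 ± 2.27 in DO8, so the DO2 mean was 12.5-fold above the DO4 mean and 14.1-fold above the DO8 mean. All 3 DO2 libraries contributed, and without DO2 library 3 the ratio to the nearer mean was 10.7, and without DO4 library 1, which had no count, 8.32. The libraries with no count could still have held up to 2.55 CPM (DO4 library 1) and 0.811 CPM (DO8 library 2), the level that 3 counts give (counting error only).

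Several of the largest ratios rested on a single DO2 library. Model evm.model.scaffold1446.6 had 7.53, 5.15 and 59.2 CPM in DO2, 0, 1.59 and 1.17 in DO4, and 0.81, 0.54 and 2.45 in DO8. The DO2 mean of 24 ± 30.5 CPM was 18.9-fold above the DO8 mean, and 5.0-fold above the nearer mean without DO2 library 3, which held most of its counts. Model evm.model.scaffold77.39 was high in DO2 library 2, with 5.96, 38.8 and 4.55 CPM in DO2 against 0.85, 2.54 and 1.4 in DO4 and 3.52, 0.27 and 2.1 in DO8, a ratio of 8.39. Without DO2 library 2 its ratio was 2.68. Model evm.model.scaffold2761.3 had 3.76, 7.92 and 24.3 CPM in DO2 against a range of 1.4 to 2.55 in the other 6 libraries. Its ratio fell from 5.82 to 2.84 without DO2 library 3. Model evm.model.scaffold1079.7 was again highest in DO2 library 2, at 9.72, 33.7 and 9.11 CPM in DO2, 5.11, 2.86 and 4.44 in DO4 and 5.95, 2.7 and 4.89 in DO8. Its ratio to the nearer mean was 3.88, and 2.08 without DO2 library 2. In these 4 models the other 2 DO2 libraries were above the remaining groups by much less than the mean.

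In other members the ratio did not rest on a single DO2 library. Model mRNA.scaffold39.extract.exonerate.4432 had 18.8, 29.7 and 14.7 CPM in DO2, 8.51, 1.27 and 2.8 in DO4 and 2.71, 3.24 and 4.89 in DO8, with a ratio of 5.02 to the nearer mean. Model evm.model.scaffold2003.1 had 12.2, 10.7 and 14.2 CPM in DO2, 8.51, 1.27 and 0 in DO4 and 4.06, 2.43 and 1.75 in DO8, a ratio of 3.79. Its DO2 libraries were close together while its DO4 libraries ranged from no count to 8.51 CPM. Its lowest DO2 library was only 1.26-fold above that DO4 library. Model evm.model.scaffold2383.1 had the most even DO2 libraries of all 46 members, at 21, 20.6 and 19.2 CPM (20.3 ± 0.936, a coefficient of variation of 4.62%). Its DO4 libraries held 4.25, 6.67 and 12.6 CPM and its DO8 libraries 10.8, 5.68 and 8.39 CPM, a ratio of 2.44. Model evm.model.scaffold1927.3 was similar, with 10, 10.7 and 11.6 CPM in DO2, 3.4, 6.04 and 4.91 in DO4 and 4.6, 4.6 and 3.5 in DO8, a ratio of 2.26.

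In the remaining strong members the nearest libraries differed by much less than the means did. Model evm.model.scaffold638.1 had 9.09, 9.51 and 15.2 CPM in DO2 and a ratio of 4.8, with DO8 library 1 at 6.49 CPM and the other DO8 libraries at 0.54 and 0. Its ratio was 3.2 without DO8 library 3, one of the libraries with no count. Model evm.model.scaffold1030.6 had 17.6, 14.3 and 21.2 CPM in DO2 and a ratio of 3.13, while DO8 library 1 reached 13.2 CPM. Model mRNA.scaffold462.extract.exonerate.3125 had 16.9, 9.91 and 8.09 CPM in DO2, 4.25, 4.77 and 0.7 in DO4 and 2.16, 1.89 and 2.8 in DO8, a ratio of 3.59. The lowest DO2 library was 1.4-fold, 1.08-fold and 1.7-fold above the nearest other library in these 3 models, less than the ratio of their means. Model evm.model.scaffold228.5 had 93.8, 36.1 and 22.3 CPM in DO2 against a range of 5.84 to 18.4 in the other libraries, a ratio of 3.32, with DO2 library 1 far above the other 2. Without that library the ratio was 1.91.

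Per kilobase of listed length, the most abundant members above were evm.model.scaffold61.34, at 57.9 CPM per kilobase in DO2, and evm.model.scaffold39.9, at 52.2. For evm.model.scaffold39.9 the DO2 libraries held 75, 98.7 and 72.9 CPM, the DO4 libraries 69.8, 18.8 and 19.9 CPM and the DO8 libraries 33.3, 30.3 and 17.1 CPM. DO4 library 1 thus came within 1.04-fold of the lowest DO2 library, and the ratio of means was 2.27. Model evm.model.scaffold61.34 had 35.1, 73.7 and 28.8 CPM in DO2, 25.5, 7.63 and 11.4 in DO4 and 20, 23.2 and 16.4 in DO8, a ratio of 2.31. In both models DO2 library 2 was the highest and DO4 library 1 the nearest.

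The other members above were at lower levels per kilobase in DO2. Model evm.model.scaffold1294.3 had 22, 30.5 and 43 CPM in DO2, 17.9, 13 and 9.34 in DO4 and 10.8, 17.6 and 12.6 in DO8, a ratio of 2.33. Model evm.model.scaffold2310.3 had 8.78, 7.13 and 17.2 CPM in DO2, 3.4, 6.67 and 1.17 in DO4 and 4.87, 3.24 and 1.4 in DO8, a ratio of 2.94. Both were highest in DO2 library 3. Model evm.model.scaffold1684.4 had 12.9, 4.75 and 9.61 CPM in DO2 against 0.85 to 4.44 elsewhere, evm.model.scaffold482.13 had 12.2, 7.53 and 6.07 against 2.55 to 5.24, and evm.model.scaffold31.7 had 10, 12.7 and 13.2 against 2.86 to 9.81. Over the 23 models the median ratio to the nearer mean was 2.94. The ratio was at least 4 in 6 of them, at least 3 in 11 and under 2.5 in 10. Just inside the 2-fold limit were evm.model.scaffold1392.1 (2.17-fold) and evm.model.scaffold846.6 (2.05-fold), and just outside it evm.model.scaffold1653.4 (1.94-fold) and evm.model.scaffold279.16 (1.89-fold).

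**Figure D1:**
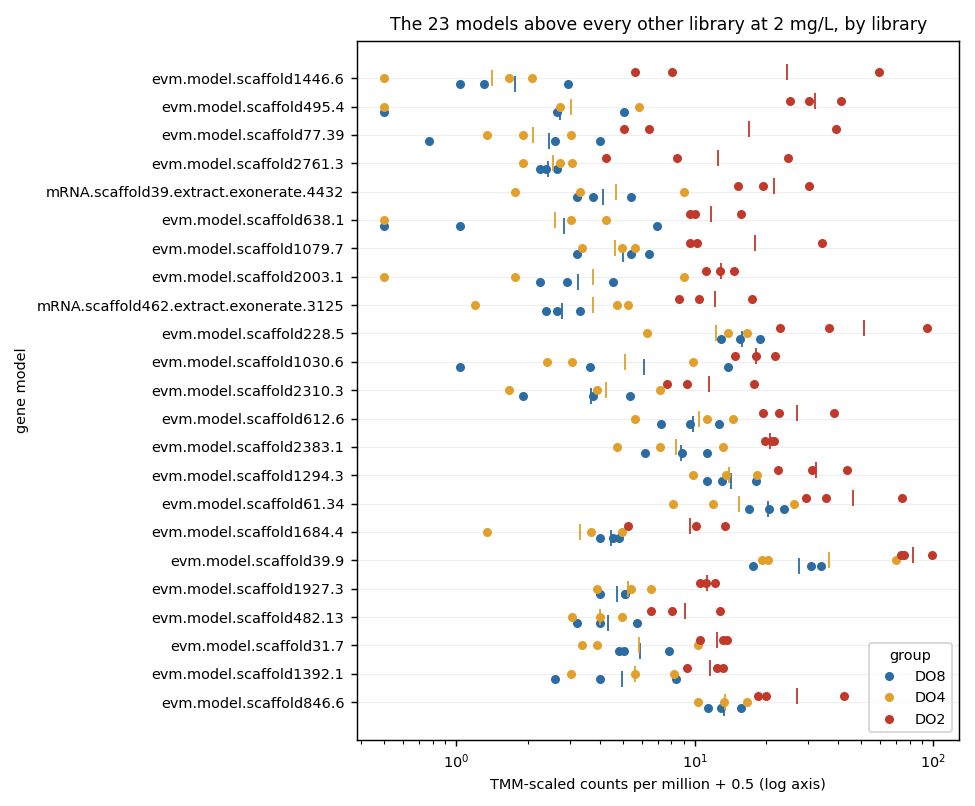
Level of each of the 23 models above at 2 mg/L in every library, as TMM-scaled CPM plus 0.5 on a log axis, with DO2 in red, DO4 in orange and DO8 in blue (dots are libraries, vertical ticks group means, n = 3). The models are ordered by the ratio of the DO2 mean to the nearer other mean, from 18.9 at the top to 2.05 at the bottom; the red dots of evm.model.scaffold495.4 are widely separated from the others, while those of evm.model.scaffold39.9 nearly meet an orange dot.

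Among the models below, evm.model.scaffold114.44 was nearly absent from DO2. It had 0.31, 0 and 0 CPM in the DO2 libraries, which is 1 count in all, 21.6, 26.2 and 23.4 CPM in DO8, and 32.3, 58.8 and 0.47 CPM in DO4. The pooled level of the other 6 libraries was 191-fold above that of DO2, with an exact 95% counting interval of 34.2 to 7569. This interval, and that of evm.model.scaffold469.4 given next, does not cover the spread between pools. Both models were chosen on these same counts. The control libraries were even, but DO4 library 3 was as low as DO2 library 1 within counting error, so a level near 0 was not confined to the DO2 pools. Model evm.model.scaffold469.4 had 0.31, 0 and 0.51 CPM in DO2 (2 counts in all), 6.81, 19.4 and 1.87 in DO4 and 6.49, 2.97 and 12.9 in DO8, a 30.4-fold difference of pooled levels (8.26 to 253). Its ratio to the nearer mean was 27.3, and it was 47.6 without DO2 library 3, 15.9 without DO4 library 2 and 17.3 without DO8 library 3. Model evm.model.scaffold842.9 had 1.3, 0 and 1.01 CPM in DO2, 2.55, 14.3 and 1.87 in DO4 and 4.06, 4.06 and 17.5 in DO8, an 8.26-fold lower mean. The ratio was 2.93 without DO4 library 2 and 5.37 without DO8 library 3. In both models these 2 libraries were the highest of their groups, and the lowest DO4 and DO8 libraries had few counts.

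Other models below were more abundant in DO4 and DO8. Model evm.model.scaffold1621.7, at 83.9 CPM per kilobase in the 6 other libraries, had 31, 36.1 and 27.3 CPM in DO2, 176, 82.3 and 64.5 in DO4 and 38.1, 164 and 113 in DO8. Its DO2 libraries were close together (31.5 ± 4.39 CPM) and 3.33-fold below the nearer mean, but DO8 library 1 lay within 1.06-fold of DO2 library 2. Model evm.model.scaffold1374.3, which is 243 bases long and had the highest level per kilobase of the members, had 15.7, 9.11 and 16.7 CPM in DO2, 138, 55 and 24.5 in DO4 and 22.7, 56.2 and 95.4 in DO8, a 4.2-fold lower mean. The other libraries thus ranged from 22.7 to 138 CPM, and DO2 stayed under all of them. Model evm.model.scaffold1662.8 had 39.5, 28.1 and 46.5 CPM in DO2, 92.8, 57.2 and 94.8 in DO4 and 61.1, 64.3 and 235 in DO8, a ratio of 2.14 that rests on DO4, the nearer group. Model evm.model.scaffold357.13 had 6.59, 5.55 and 4.55 CPM in DO2, 33.2, 28.3 and 8.88 in DO4 and 15.4, 14.6 and 67.1 in DO8, a ratio of 4.22, and 2.7 without DO8 library 3. It had 44 counts in DO2 in all. In each of these 4 models a DO4 or DO8 library stood well above its group.

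In 5 of the 23 models below, DO2 library 3 had no count, where a count of 0 allowed up to 1.52 CPM. One was evm.model.scaffold3207.1, with 14.1, 8.32 and 0 CPM in DO2, 27.2, 21 and 16.4 in DO4 and 29.5, 31.1 and 18.9 in DO8. Its ratio of 2.88 fell to 1.92 without that library. The same was seen in evm.model.scaffold1015.8 (2.99-fold, 1.99 without it) and evm.model.scaffold1299.8 (2.93-fold, 1.95 without it), while evm.model.scaffold1241.6 had a ratio of 2.37 (3.56 with it). The ratio of evm.model.scaffold1241.6 was 5.42 without DO2 library 1 and 2.35 without DO8 library 3, and that of evm.model.scaffold3207.1 was 5.17 without DO2 library 1. These models had DO2 levels of 3.17 to 14.1 CPM in the other 2 pools, so the mean was lowered by the pool with no count. Model evm.model.scaffold311.14 had counts in every library, with 3.45, 5.55 and 5.06 CPM in DO2, 11.1, 11.1 and 12.8 in DO4 and 18.1, 10 and 8.04 in DO8, a 2.49-fold lower mean. Its DO4 libraries were even and its DO8 libraries were not. Model evm.model.scaffold7.46 had 10, 9.11 and 16.2 CPM in DO2, 31.5, 21 and 18.9 in DO4 and 22.4, 28.1 and 28.7 in DO8, a 2.02-fold lower mean that was the smallest of the 23.

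Over the 23 models below, the median ratio of the nearer mean to DO2 was 2.49. It was at least 4 in 5 models, at least 3 in 7 and under 2.5 in 12. Besides evm.model.scaffold7.46, evm.model.scaffold30.60 (2.04-fold) lay just inside the 2-fold limit, and evm.model.scaffold428.2 (1.99-fold) and evm.model.scaffold1638.2 (1.98-fold) just outside it. The most even DO2 libraries belonged to evm.model.scaffold329.15, at 4.08, 3.17 and 3.54 CPM, against 6.81, 7.63 and 11.2 CPM in DO4 and 11.6, 5.41 and 5.59 CPM in DO8.

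The other members below had ratios of 2.13 to 2.89. Model evm.model.scaffold557.3, the most abundant of them, had 10, 23.8 and 21.2 CPM in DO2, 27.2, 61.6 and 40.9 in DO4 and 34.1, 52.5 and 51.7 in DO8. DO2 library 1 was the lowest there by a wide margin. Model evm.model.scaffold1129.34 had 2.2, 7.92 and 4.55 CPM in DO2, 9.36, 17.8 and 15.2 in DO4 and 9.74, 13.8 and 11.2 in DO8. Model evm.model.scaffold1672.9 had 5.33, 3.17 and 1.52 CPM in DO2, 11.1, 6.99 and 11.4 in DO4 and 7.03, 9.19 and 8.04 in DO8. These 2 models had 36 and 28 counts in the 3 DO2 libraries together. The members evm.model.scaffold403.1, evm.model.scaffold317.41, evm.model.scaffold163.14, evm.model.scaffold2467.1 and evm.model.scaffold51.24 had DO2 libraries between 1.01 and 5.02 CPM, with 15 to 30 counts in the 3 libraries together.

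**Figure D2:**
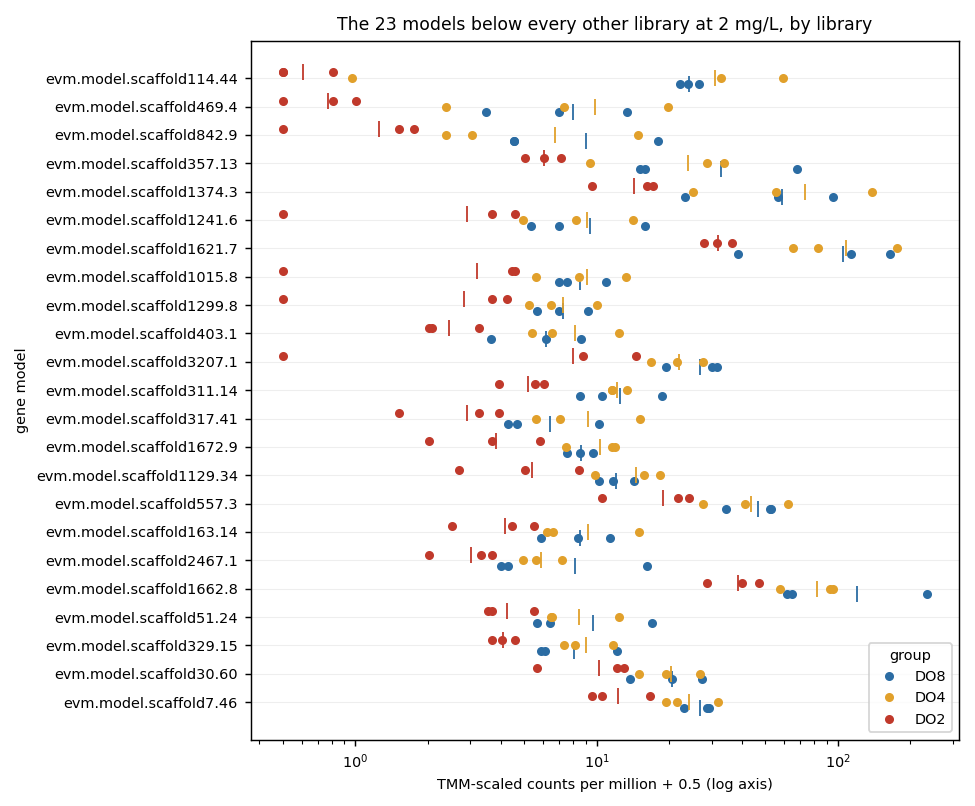
Level of each of the 23 models below at 2 mg/L in every library, as TMM-scaled CPM plus 0.5 on a log axis, with DO2 in red, DO4 in orange and DO8 in blue (dots are libraries, vertical ticks group means, n = 3). Red dots at 0.5 are libraries with no count, as for evm.model.scaffold3207.1 in DO2 library 3, and a single orange dot of evm.model.scaffold114.44 (DO4 library 3, 0.47 CPM) sits beside the red ones.

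The mean level over the 9 libraries ran from 5.23 to 48.4 CPM for the models above and from 5.07 to 81.3 CPM for those below, and 15 and 13 of them were under 10 CPM. The median of all tested models was 12.5 CPM. The DO4 mean was above the DO8 mean in 11 of the 23 models above and in 11 of the 23 below. The limit on closeness is a ratio, so it also removed models that were scarce in both other groups. It set aside 17 models above that met every other limit, of which 7 had DO4 and DO8 means under 5 CPM and 2 had no count in DO8, and it set aside 21 below. The 2 with no count in DO8 were evm.model.scaffold1622.1 and evm.model.scaffold131.3. The former had 81.2, 20.2 and 161 CPM in DO2, 0, 0 and 0.47 in DO4 and 0, 0 and 0 in DO8, and so was widely separated. The latter had 57.7, 11.1 and 128 CPM in DO2, 0, 0 and 10.3 in DO4 and 0, 0 and 0 in DO8. Its lowest DO2 library and DO4 library 3 were nonetheless close to each other.

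**Figure D3:**
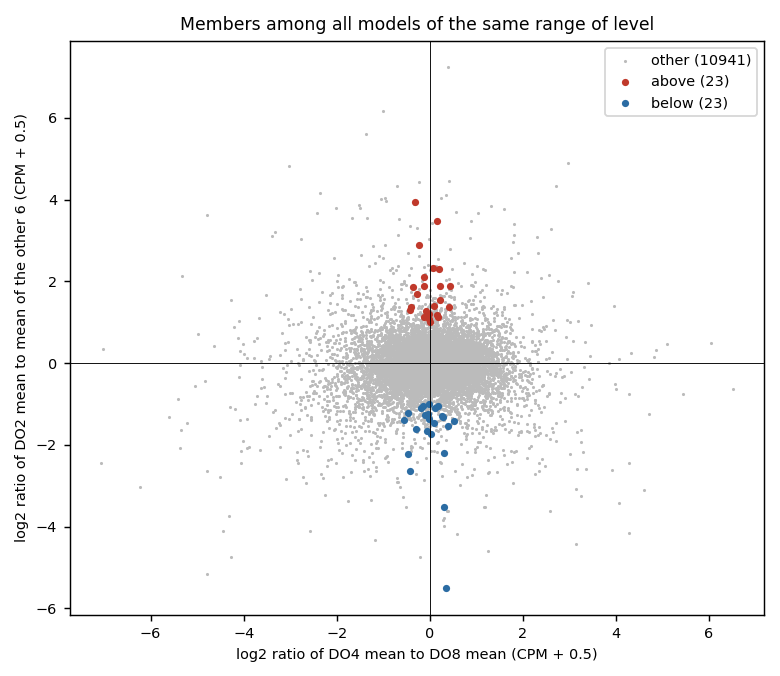
Log2 ratio of the DO2 mean to the mean of the other 6 libraries (vertical) against the log2 ratio of the DO4 mean to the DO8 mean (horizontal), each on CPM plus 0.5, for the 10987 tested models within the limits on level. The 23 models above (red) and 23 below (blue) lie in a narrow vertical band because the rule holds DO4 and DO8 within 1.5-fold; grey points at the same height inside the band are models whose libraries overlapped or whose ratio to the nearer mean missed the 2-fold limit, such as evm.model.scaffold1653.4 (1.94-fold).

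The separation of the single libraries was narrow. Between the DO2 library nearest to the others and the nearest other library, the ratio had a median of 1.26 over the models above and 1.18 over those below, and it was under 1.2 in 9 and 12 of them. The rule itself holds this ratio above 1. An exact 95% counting interval of this ratio lay above 1 for evm.model.scaffold495.4 (4.57, interval 2.79 to 7.73) and for no other of the 46 members. The interval covers counting error only, not the spread between pools, so it is no test of that member. For the other 45 the order of the nearest libraries was not detectable at this depth. When the counts of each side were pooled, the interval of the ratio between DO2 and the other 6 libraries lay above 1 in 23 of 23 models above and 23 of 23 below, which the choice of members on these same counts largely fixes and which does not cover the spread between pools. The total count of a member over the 9 libraries ran from 116 to 1142 above and from 129 to 2119 below, with medians of 201 and 204.

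**Figure D4:**
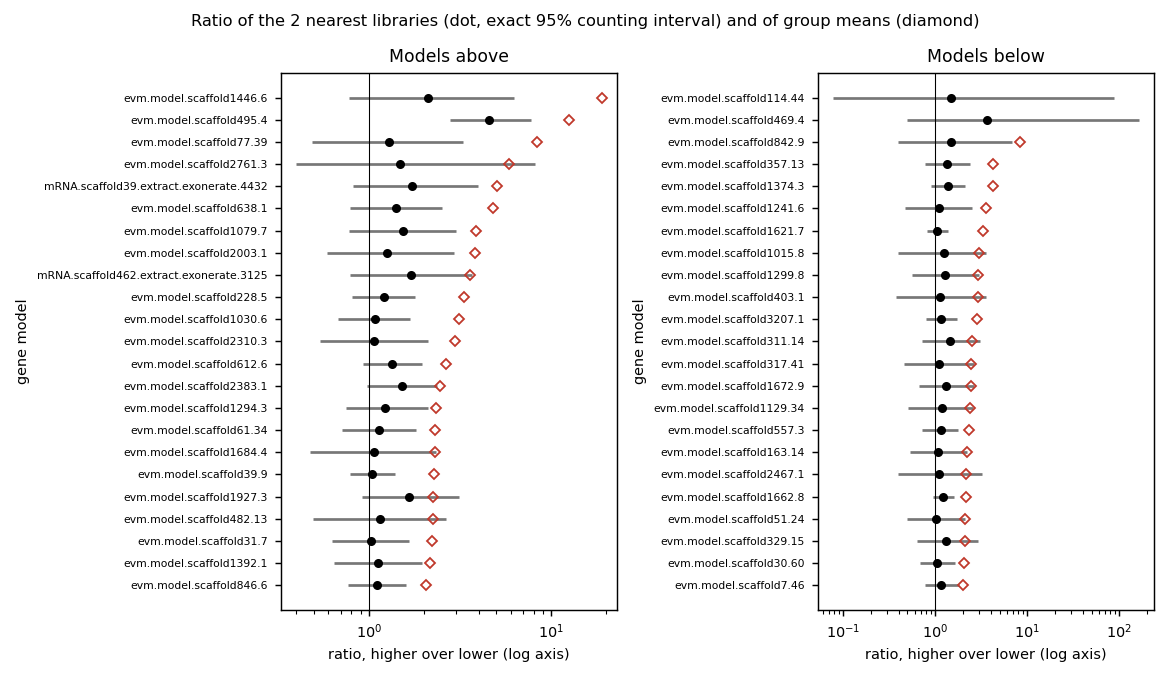
For each member, the ratio of the nearest libraries on either side of the gap (black dot) with its exact 95% counting interval (grey line), and the ratio of the DO2 mean to the nearer other mean (red diamond, not drawn for the 2 models with 3 or fewer counts in DO2), all as higher over lower on a log axis. The vertical line marks a ratio of 1, and the interval of evm.model.scaffold495.4 alone lies to its right.

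DO2 library 3 took the extreme position in many members. It was the highest DO2 library in 13 of the 23 models above, against 34.3% of all models in the same range of level, and the lowest in 12 of the 23 below, against 35.3%. Its part in these results was not tested. Without it, the ratio to the nearer mean stayed at 2 or more in 21 of the 23 models above and 15 of the 23 below. Above, evm.model.scaffold1294.3 went from 2.33 to 1.92 and evm.model.scaffold846.6 from 2.05 to 1.44. Below, besides evm.model.scaffold3207.1, evm.model.scaffold1015.8 and evm.model.scaffold1299.8, given earlier, evm.model.scaffold317.41 went from 2.45 to 1.9, evm.model.scaffold1672.9 from 2.42 to 1.9, evm.model.scaffold163.14 from 2.19 to 1.79, evm.model.scaffold2467.1 from 2.16 to 1.8 and evm.model.scaffold51.24 from 2.13 to 1.95. Applied afresh to the other 8 libraries, the rule picked 84 models above, 18 of them members, and 116 below, 15 of them members. The rule asks less of 2 DO2 libraries than of 3, so these counts are not like for like with 23 and 23. Leaving out DO2 library 1 gave 76 and 77, and leaving out DO2 library 2 gave 65 and 64. Leaving out DO4 library 1 gave 35 above and 45 below, and leaving out DO4 library 3 gave 29 above and 48 below. Why the counts depended on the library left out was not tested. Under each of 12 settings (DESeq2 size factors, upper-quartile factors, no filter and each library left out), evm.model.scaffold1079.7, evm.model.scaffold612.6 and evm.model.scaffold1927.3 stayed among the models above and evm.model.scaffold1621.7 among those below. None of the 6 models above with a ratio of at least 4 stayed in every setting. Of these, evm.model.scaffold1446.6 stayed in 7 of the 12, evm.model.scaffold495.4 and evm.model.scaffold77.39 in 9 and evm.model.scaffold638.1 in 5. The others, evm.model.scaffold2761.3 and mRNA.scaffold39.extract.exonerate.4432, stayed in 10. A model can also leave through the limits on closeness or level, with its ratio still above 2. Model evm.model.scaffold495.4 left without DO4 library 1, DO4 library 3 or DO8 library 3, where its ratio to the nearer mean was 8.32, 14.1 and 12.5. Of the more abundant models below, evm.model.scaffold1662.8 stayed in 5 of the 12 settings, evm.model.scaffold357.13 in 7 and evm.model.scaffold1374.3 in 9. Model evm.model.scaffold612.6 had 18.8, 22.2 and 37.9 CPM in DO2, 5.11, 10.8 and 14 in DO4 and 12.2, 6.76 and 9.09 in DO8.

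The members were spread over the genome scaffolds. The 23 models above lay on 22 scaffolds and the 23 below on 23. Scaffold 39 held 2 members, evm.model.scaffold39.9 and mRNA.scaffold39.extract.exonerate.4432, and no 2 members had consecutive numbers. Of the models numbered directly before or after a member, 18 beside the models above and 25 beside the models below were tested. Of either, 0 had DO2 clear of the other 6 libraries in the same direction, against 0.825% (above) and 0.99% (below) of all tested models. With shares this small, a count of 0 says nothing about the neighbours. The means of the tested neighbours leaned the same way as the members, which rests on few models and was not tested. The DO2 mean was above the mean of the other 6 libraries in 12 of 18 neighbours of models above, against 48% of all tested models, and below it in 18 of 25 neighbours of models below, against 52%. The difference was at least 2-fold upwards in 3 of 18 (5.41% of all tested models) and at least 2-fold downwards in 5 of 25 (8.08%). Of the 3, evm.model.scaffold2003.2 and evm.model.scaffold61.33 were scarce, with DO8 means of 0.53 and 0.541 CPM. Of the 5, evm.model.scaffold469.3 and evm.model.scaffold469.5 lie beside the same member. Another, evm.model.scaffold1621.6, was as low in DO4 (mean 24.2 CPM) as in DO2 (29.3 CPM). The median log2 ratio was 0.25 beside models above and -0.21 beside models below, and -0.03 over all tested models. Neighbouring models can share reads or be parts of one gene, which was not tested.

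The 1 member with both neighbours at least 2-fold in the same direction, singled out after its values were seen, was on scaffold 469, where the models on either side of evm.model.scaffold469.4 were also low in DO2. Model evm.model.scaffold469.3 had 2.82, 0 and 1.01 CPM in DO2, 45.1, 84.2 and 3.04 in DO4 and 31.6, 0.54 and 120 in DO8. Model evm.model.scaffold469.5 had 3.14, 15.1 and 8.09 CPM in DO2, 36.6, 50.2 and 12.8 in DO4 and 32.5, 7.3 and 93.3 in DO8. In all 3 models DO4 library 3 and DO8 library 2 were the lowest of their groups, so the levels separated pools within the DO4 and DO8 groups as well as DO2 from the rest. The next model, evm.model.scaffold469.6, had 7.21, 3.17 and 8.09 CPM in DO2, 5.96, 56.9 and 3.5 in DO4 and 19.5, 4.6 and 48.6 in DO8. There too DO4 library 3 and DO8 library 2 were the lowest of their groups, but DO4 library 1 lay among the DO2 libraries. Beyond these, evm.model.scaffold469.2 and evm.model.scaffold469.7 had ranges of 6.34 to 17.3 and 6.64 to 22.2 CPM over the 9 libraries, much narrower in ratio than those between them. Beside evm.model.scaffold1621.7 the pattern differed from model to model. Its neighbour evm.model.scaffold1621.6 had 23.8, 33.3 and 30.9 CPM in DO2 and 17, 30.8 and 24.8 in DO4 against 106, 104 and 124 in DO8, and evm.model.scaffold1621.8 had 64.9, 75.3 and 56.7 CPM in DO2 within the range of 25.1 to 89 of the others.

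**Figure D5:**
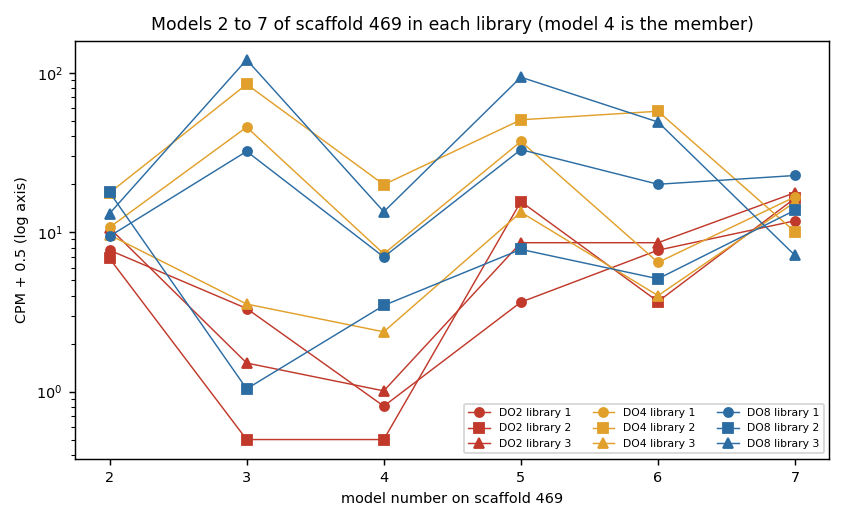
CPM plus 0.5 on a log axis for the models numbered 2 to 7 on scaffold 469, with a line for each of the 9 libraries (DO2 red, DO4 orange, DO8 blue). At models 3 to 5 the DO2 libraries, DO4 library 3 and DO8 library 2 run low together (0 to 15.1 CPM). At model 6 the same libraries lie at 3.17 to 8.09 CPM, with DO4 library 1 among them at 5.96 CPM. At model 7 all libraries come together at 6.64 to 22.2 CPM.

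The median listed length was 1186 bases above and 1338 below, and 1068 over all models in the same range of level. Models named exonerate made up 2 of the 23 above and 0 of the 23 below, against 1.89% of the tested models. Of the expected counts listed for the members, 30.3% above and 45.2% below were whole numbers with no decimal part, against 49.6% over the models in the same range of level. Why the others have a decimal part was not tested. Every listed count was whole for 6 models above, among them evm.model.scaffold495.4, evm.model.scaffold1079.7 and evm.model.scaffold228.5, and for 8 below. The coefficient of variation had a median of 37.4% within DO2, 63.4% within DO4 and 31.6% within DO8 for the models above, and of 41.2%, 42.9% and 44.3% for those below. Over all models in the same range of level it was 42.4%, 47.9% and 30.0%. The rule chose the models above partly by their DO4 values, so no comparison is drawn from these figures.

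Tests across all 13933 models gave the background. Between DO2 and DO8, between DO2 and DO4, and between DO2 and the mean of both, edgeR's quasi-likelihood test with Benjamini-Hochberg adjustment called 0 models (0%), and so 0 of the 46 members. At an unadjusted p under 0.05 in DO2 against the mean of both, it found 373 models higher (2.68%), 23 of the 23 models above among them, and 267 lower (1.92%), with 16 of the 23 below among them. For DO2 against DO8 the same threshold took in 380 higher (2.73%) and 451 lower (3.24%), with 16 and 14 members among them, and for DO2 against DO4 410 higher (2.94%) and 274 lower (1.97%), again with 16 and 14 members. The rule used the same values, so these shares say nothing further about the members. The common spread between pools, edgeR's biological coefficient of variation, was 61.1%. With that spread and 3 pools per group, the 0 models called do not show that no model differed. Among the 26805 models with a DESeq2 p-value, DESeq2 with Benjamini-Hochberg adjustment called 35 (0.131%) in DO2 against the mean of both, among them the members evm.model.scaffold1446.6, evm.model.scaffold495.4 and mRNA.scaffold39.extract.exonerate.4432 above and evm.model.scaffold114.44 below. It called evm.model.scaffold1446.6 and evm.model.scaffold114.44 also in DO2 against DO8 (64 models, 0.239%) and in DO2 against DO4 (27 models, 0.101%). Those comparisons share libraries, so they are not independent of each other. Applied with DO4 in the place of DO2, the same rule picked 38 models above and 49 below, more than the 23 and 23 at DO2. This difference was not tested, and the DO4 libraries spread more (a median coefficient of variation of 47.9% against 42.4%).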

How the data were processed

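The deposited tables list, per the file headers, a gene model, its length, an expected count (the authors' estimated count per model, not normalized) and an FPKM value computed by the authors. Of the tools, the submitters' processing notes name CASAVA 1.5. Which aligner, counter, genome build or annotation was used is not given in the sources used here. Of the lengths, 93.5% are divisible by 3, so they are mostly coding lengths.

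Models not listed in a library were taken as 0. Expected counts were rounded, filtered with filterByExpr by group (13933 of 27214 models kept), scaled by TMM and tested with the robust quasi-likelihood test of edgeR 4.0.16 under R 4.3.3 (1 coefficient per group over the 9 libraries) with Benjamini-Hochberg adjustment and a threshold of 0.05. The scripts were tested on simulated data. DESeq2 1.42.0 (26805 models with a p-value) and limma 3.58.1 on log2(FPKM + 1) and log2(FPKM + 0.1) were alternatives. Counting intervals are exact 95% binomial (Clopper-Pearson) intervals and, like the floor of 3 counts, cover counting error only. PCR copies are not separate molecules.

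Groups come from the sample titles. The members and the lists were chosen with earlier results of these data known. The list fixed with the design held members with the largest ratios, the highest levels per kilobase and the most even DO2 libraries. It also held the models nearest the 2-fold limit, and other members were added later. Some listed models are given by ratio or range only, such as evm.model.scaffold403.1 and evm.model.scaffold30.60. No 2 members had consecutive numbers, so that part of the rule named none.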

Additional observations from a re-analysis of the deposited data

How the results depend on the processing

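The counts of models above and below at DO2 were 23 and 23. They were within 1.5 times of that with DESeq2 size factors (23 and 25), upper-quartile factors (21 and 24), no filter on low counts (22 and 25) and DO4 and DO8 within 2-fold (27 and 32). They moved further with deposited FPKM (5 and 102), a 1.5-fold limit (41 and 61), a 3-fold limit (11 and 7), a mean of at least 2 CPM (36 and 40) or 10 CPM (8 and 10), and, for the models below, a narrower limit on the closeness of DO4 and DO8 (15; 17 above). Wider limits can only add models and narrower ones only remove them. Leaving out each library gave 25 to 84 above and 22 to 116 below, and leaving out DO2 library 3 with DO4 library 1, a setting chosen after seeing the data, 85 and 163 (10 and 14 of them members).

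For the models called in DO2 against DO8, DO2 against DO4 and DO2 against the mean of both, edgeR's 0, 0 and 0 became 64, 27 and 35 by DESeq2, 1, 1 and 1 by limma on log2(FPKM + 1), 4, 7 and 3 with 0.1 added in place of 1, and 2, 1 and 2 when limma's filter was dropped. Without edgeR's filter on low counts the third became 1. Leaving out each library gave 0, 0 to 1 (1 when DO4 library 3 or DO8 library 3 was left out) and 0. With the replicate number as a block the counts were 0, 0 and 0; same-numbered libraries did not deviate together (r from -0.169 to 0.068 over 9 pairs), so the numbers were not taken as pairs. Why the counts differ was not tested. Of 551 log2 ratios of members under these settings, 38 moved by more than the spread among DO2 libraries and 0 changed sign, which the choice of non-overlapping groups largely fixes; evm.model.scaffold114.44 gave no ratio without DO2 library 1, its only DO2 library with a count.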
